A study of Mus musculus with 6 samples.

Results

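The genes described here are the mitochondrial carriers of the SLC25 family, the transport proteins of the inner mitochondrial membrane. They were chosen by name: every array probe whose annotation gave exactly 1 gene symbol made of Slc25a and a number, without the carnitine carrier Slc25a20, with the probe of the highest mean kept for each gene. That gave 45 genes of the 22180 that had a probe with a single symbol, and each of the 45 had only 1 such probe. Livers came from male C57BL/6 mice that were 8 weeks old before the study. The vehicle_HFD group, 3 arrays, received vehicle for 7 days and then a high-fat diet for 6 weeks. The Vascepa_HFD group, 3 arrays, received Vascepa for 7 days and then the same diet for 6 weeks. Vascepa is icosapent ethyl, a purified ester of eicosapentaenoic acid, an omega-3 fatty acid. Both groups therefore shared the strain, the sex and the diet, no group without the diet was analysed here, and the comparison asks how livers on this diet differed after earlier Vascepa. The labels do not say that the 3 samples of a group were separate animals, so the p-values rest on a spread between samples that may be technical.

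As background, an SLC25 carrier swaps a small molecule of the cytosol for another in the matrix, or moves it together with protons, and so links the reactions on both sides of the membrane. In liver these carriers serve the urea cycle, the shuttles that bring reducing power into mitochondria, the export of citrate for fat and sterol synthesis, and the exchange of ATP for ADP. The gene symbols are numbered, many of the proteins have a common name taken from a substrate, and the substrates of some members are still debated.

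The values are the authors' log2 readings per transcript cluster, so a difference of 1 is a doubling. The labelled tissue was borne out by its markers, with Alb, the serum albumin gene, between 13.18 and 13.33 on the 6 arrays and Ttr between 12.83 and 13.01. Across the 13493 genes tested, r for a pair of arrays ran from 0.906 to 0.986. Vascepa replicate 3 stood farthest from the others, with a mean r of 0.938 against 0.959 to 0.973 for the other arrays. Readings of 68 small nucleolar RNA probes, short RNAs whose recovery can differ between extractions, averaged 5.93, 6.81 and 6.18 on vehicle replicates 1, 2 and 3, and 5.79, 6.94 and 7.49 on Vascepa replicates 1, 2 and 3. The arrays therefore also differed in a way that cut across the groups, and results that follow it are given array by array below.

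The brightest members of the family included carriers of liver pathways and more general ones. Slc25a47, a carrier found mainly in liver, had the highest mean reading over the 6 arrays at 10.67, level with Slc25a5, the adenine nucleotide translocase that exports ATP in most dividing and non-muscle cells, also at 10.67. The next were Slc25a15 at 9.29, which carries ornithine for the urea cycle, and Slc25a13 (citrin) at 9.18, the aspartate-glutamate carrier of liver. Slc25a23, an exchanger of ATP-Mg for phosphate, followed at 8.89, then Slc25a1, the citrate carrier, at 8.78. Slc25a39, which carries glutathione, read 8.06, Slc25a46, a protein of the outer membrane that shapes mitochondria, 7.77, Slc25a17, a carrier of peroxisomes, 7.62, and Slc25a16, linked to coenzyme A, 7.50.

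These 10 genes stayed the 10 brightest after quantile normalization again and with any array left out. The other processing alternatives keep each carrier's mean over the 6 arrays, so they could not change which were brightest. The order inside the family is an order of readings, since probes differ in how brightly they bind and no level of a gene's RNA can be read from it. Ass1, a urea cycle enzyme abundant in liver and picked here after its values were seen, illustrates the point, with readings of only 2.97 to 4.26. The fine order was also loose. Of the 44 pairs of neighbours in it, only 8 kept their order on all 6 arrays, and between the vehicle and Vascepa means no gene moved by more than 7 places.

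**Figure D1:**
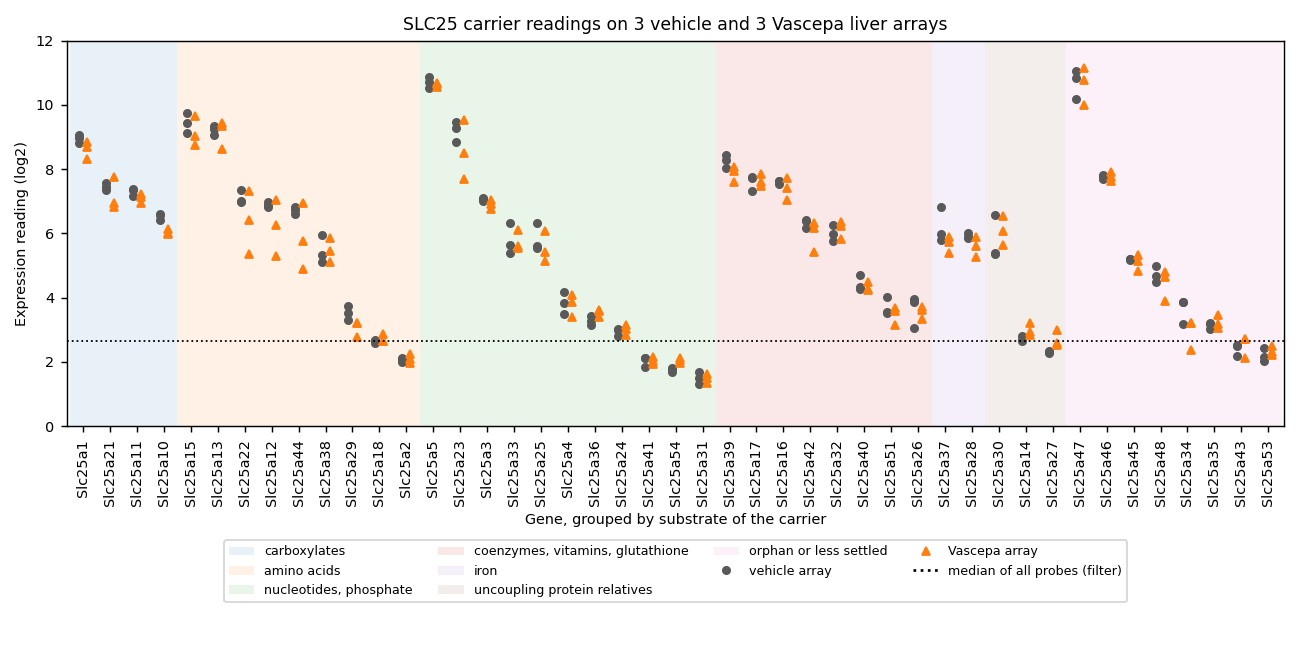
Log2 expression reading of the 45 SLC25 genes on each of 3 vehicle arrays (grey circles) and 3 Vascepa arrays (orange triangles), grouped by the substrate of the carrier; the dotted line is the median of all probes, 2.65, used as the filter for testing. Slc25a47 and Slc25a5 read highest, 7 genes lie under the line, and the widest spread within the Vascepa group is in Slc25a44, Slc25a22, Slc25a23 and Slc25a12.

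The adenine nucleotide translocases of other tissues read lower than Slc25a5, with the limit just given. Slc25a4, the adenine nucleotide translocase of heart and muscle, had a mean of 3.80, and Slc25a31, its relative of the testis, had the lowest mean of all at 1.50. In all, 38 of the 45 genes reached the filter, the median of all probes at 2.65, and were tested. The 7 under it were Slc25a27, Slc25a43, Slc25a53, Slc25a2, Slc25a41, Slc25a54 and Slc25a31, with means of 2.51 down to 1.50. Slc25a18 lay just inside at 2.68 and Slc25a27 just outside at 2.51. Slc25a18, whose vehicle mean was 2.64, passed only through its Vascepa mean of 2.73.

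Start-site sequence was at hand for 35 of the 45 genes, from RefSeq on GRCm38.p6, as 45 windows of 250 bases before to 50 after a start. The letters of 6 motifs were searched on both strands: the GC box, spelled GGGCGG, the box named after its letters CCAAT, the TATA box, spelled TATAAA, the GABP motif, spelled CCGGAAG, the NRF1 palindrome, and the motif of estrogen-related receptors, spelled TCAAGGTCA. The GC box was in 37 of the 45 windows, 82.2%, against 46.2% of the 21262 windows of protein-coding genes and 35.7% of all 32851 windows. CCAAT was in 48.9%, against 38.2% of protein-coding windows. TATAAA was in 2 windows, 4.44% against 12.6%, those of Slc25a18 and Slc25a21. CCGGAAG was in 13.3% against 11.6%, and the NRF1 and estrogen-related receptor letters were in none, against 1.33% and 0.334%. Windows of a gene can overlap, and a match is a description of letters, not of binding.

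The windows of both brightest members are shown to set a liver carrier beside a general one, written 5′ to 3′ on the gene's strand with the letters that match a motif in capitals. In the Slc25a5 window the capitals are a GC box on the opposite strand. In the Slc25a47 window, which has no GC box, they are CCAAT on the opposite strand, in 2 places.
Slc25a47 (chr12:108850879-108851178, plus strand): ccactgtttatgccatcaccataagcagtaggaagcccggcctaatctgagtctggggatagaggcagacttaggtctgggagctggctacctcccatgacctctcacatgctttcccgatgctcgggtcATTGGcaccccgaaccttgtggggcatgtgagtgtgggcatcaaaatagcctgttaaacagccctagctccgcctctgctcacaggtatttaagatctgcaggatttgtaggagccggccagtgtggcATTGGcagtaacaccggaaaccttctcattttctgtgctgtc
Slc25a5 (chrX:36795347-36795646, plus strand): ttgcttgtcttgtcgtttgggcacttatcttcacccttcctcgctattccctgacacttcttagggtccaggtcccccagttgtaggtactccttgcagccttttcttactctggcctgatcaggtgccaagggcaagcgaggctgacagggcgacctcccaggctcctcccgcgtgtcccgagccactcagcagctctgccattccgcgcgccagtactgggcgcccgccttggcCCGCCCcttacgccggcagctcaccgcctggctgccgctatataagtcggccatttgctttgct

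Against that background, no carrier passed the test between Vascepa and vehicle livers, and 1 of the 38 tested, the dicarboxylate carrier Slc25a10, passed at an unadjusted p under 0.05. In the limma fit over the 13493 genes, 0 passed at an adjusted p under 0.05 (0%) and 362 at an unadjusted p under 0.05 (2.68%, with 1.64% lower and 1.04% higher), so 1 of 38 lies near the background. Of the 38 carriers 28 had a lower mean in Vascepa livers and 10 a higher one, against 60.1% lower among all genes tested. Their median difference was −0.18 on the log2 scale, and that of all genes tested was −0.063. Bright genes were lower more often. At or above the 75th percentile of brightness 23 of 28 carriers were lower, beside 73.3% of all such genes. The medians there were −0.24 for the carriers and −0.14 for all such genes. In pieces of tissue, fewer cells of a type and less RNA per cell cannot be told apart.

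The size of that split depended on the scaling. With each array centred on its median over all probes the family's median difference was −0.25 and that of all genes −0.14. Lower means were then found in 32 of 38 carriers, beside 71.1% of all genes. Centring each array on the median of the genes tested was an alternative added after seeing the data. It gave a family median of −0.078 and an all-gene median of 0.037, with 21 of 38 carriers lower, beside 44.2% of all genes. Among other cell types, 7 of 8 Kupffer cell markers had a lower mean in Vascepa livers and 5 of 6 tested skeletal muscle markers a higher one, and 9 of 10 hepatocyte markers were lower with a median of −0.21. At an unadjusted p under 0.05 there were 3 of the 8 Kupffer markers (Vsig4, Cd68 and Timd4, all lower) and 1 muscle marker (Acta1, higher), beside 2.68% of all genes. Median Kupffer marker levels ran from 5.85 to 6.02 over the vehicle arrays and from 5.46 to 5.86 over the Vascepa arrays. Of 4 tested pancreatic acinar markers 4 were higher, with a median of 0.29. One of them, Clps, had a vehicle mean of 2.51, under the filter. It was tested only through its Vascepa mean of 3.03, the group where it was higher. Under the filter, Cpa1 was lower by −0.10 and Amy2b higher by 0.23. The median level of the acinar list ran from 2.61 to 2.70 over the vehicle and from 2.81 to 3.15 over the Vascepa arrays. None of these markers was listed at 0. The part of these differences in the carrier values was not tested.

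**Figure D2:**
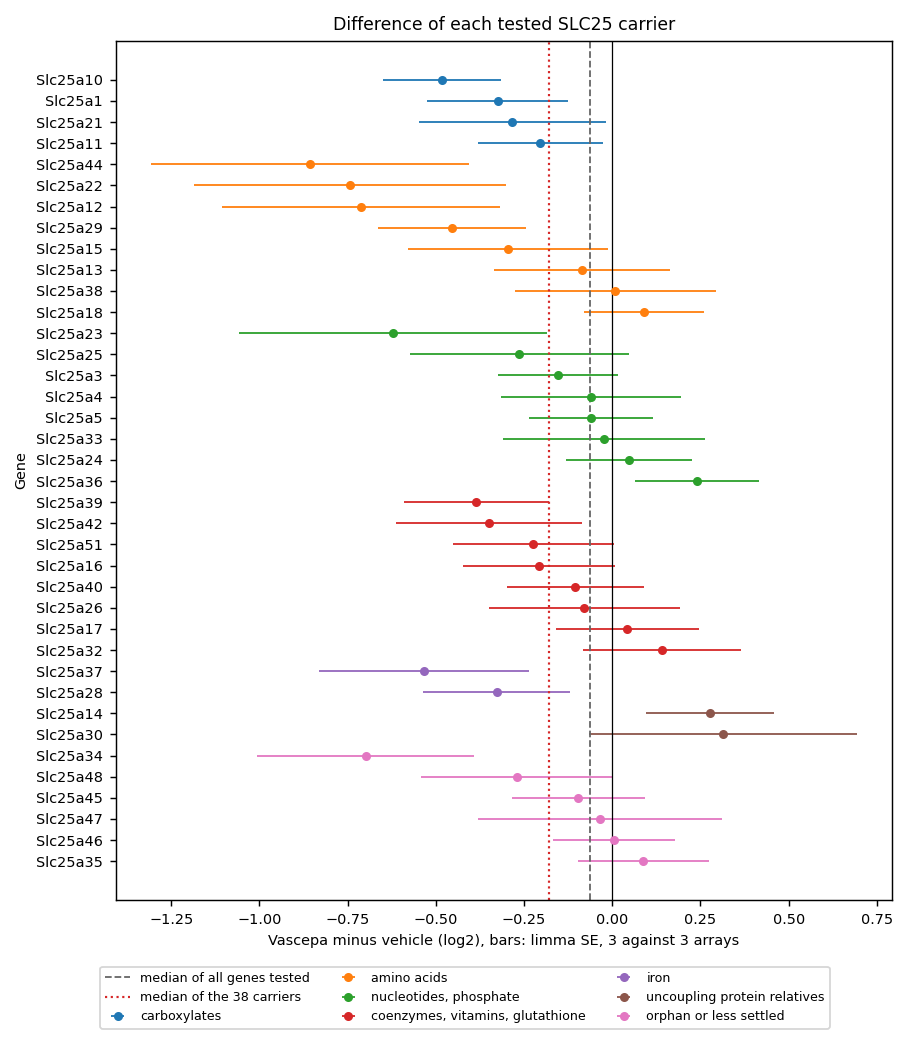
Vascepa minus vehicle difference (log2) of the 38 tested SLC25 genes with limma's standard error, 3 arrays against 3, coloured by substrate; the dashed line is the median of all genes tested, −0.063, and the dotted line the median of the 38 carriers, −0.18. All 4 carboxylate carriers and both iron carriers lie left of 0, both tested relatives of uncoupling proteins lie right of it, and the widest bars belong to Slc25a44, Slc25a22, Slc25a23 and Slc25a12.

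Carriers of carboxylates, which move citrate, malate, succinate and oxoglutarate, were lower in the mean in 4 of 4 cases, with a median difference of −0.30. Slc25a10 exchanges malate or succinate for phosphate. It read 6.41, 6.57 and 6.60 in vehicle livers and 6.13, 6.02 and 5.99 in Vascepa livers. All 3 Vascepa readings lay under all 3 vehicle readings, and the spread within each group was small (SD 0.099 and 0.072). The difference was −0.48 ± 0.17 (SE), a 1.40-fold lower level, with a 95% interval of −0.87 to −0.094 (limma, adjusted p = 0.976). In limma the unadjusted p ranged from 0.0287 to 0.0764 when a single array was left out, and lay at or above 0.05 without vehicle replicate 2 (0.0629), vehicle replicate 3 (0.0764) or Vascepa replicate 2 (0.0573). It was 0.0589 after quantile normalization again and 0.0686 with arrays centred on the genes tested, and its difference was −0.38 in both.

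The start-site window of Slc25a10 is printed because it is the carrier whose groups lay farthest apart for their spread. Its capitals are a GC box on each strand and CCAAT on the opposite strand, all close to the start.
Slc25a10 (chr11:120491587-120491886, plus strand): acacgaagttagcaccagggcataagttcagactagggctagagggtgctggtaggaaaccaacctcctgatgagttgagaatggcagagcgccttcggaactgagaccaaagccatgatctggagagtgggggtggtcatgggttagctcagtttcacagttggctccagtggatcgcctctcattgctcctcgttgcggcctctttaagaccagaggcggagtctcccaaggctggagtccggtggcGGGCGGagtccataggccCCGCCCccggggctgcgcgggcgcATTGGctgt

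Slc25a1 exports citrate, the carbon source for fatty acid and cholesterol synthesis. It read 8.96, 8.82 and 9.06 in vehicle livers and 8.85, 8.69 and 8.33 in Vascepa livers. The groups overlapped by a single pair, vehicle replicate 2 and Vascepa replicate 1, and the difference was −0.32 ± 0.20 (limma, adjusted p = 0.976), or −0.18 without Vascepa replicate 3. Slc25a11, the oxoglutarate carrier of the malate-aspartate shuttle, differed by −0.20 ± 0.18, and Slc25a21, which carries oxoadipate from lysine breakdown, by −0.28 ± 0.26. Enzymes that use these carriers' substrates were lower in the mean as well, and no member passed at an unadjusted p under 0.05. Of the 7 genes for citrate export and use, 7 had lower means, with a median difference of −0.25. Beside them, 60.1% of all genes tested were lower, and 73.3% of genes at or above the 75th percentile of brightness. The list's median level was 8.54, 7.99 and 8.48 in vehicle livers and 8.67, 8.02 and 7.46 in Vascepa livers. It was highest on Vascepa replicate 1, and only Vascepa replicate 3 lay under the vehicle range. Idh2, which makes oxoglutarate from isocitrate, differed by −0.34 ± 0.17, and Me1, the malic enzyme of the cytosol, by −0.41 ± 0.29.

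Amino acid carriers held the largest differences of the family, with a wide spread between Vascepa arrays. Of 8 tested members 6 were lower in the mean and 2 higher, with a median of −0.37, and 0 of 8 passed at an unadjusted p under 0.05. Slc25a44, which carries branched-chain amino acids, read 6.83, 6.62 and 6.74 in vehicle livers and 6.94, 5.78 and 4.91 in Vascepa livers. Vascepa replicate 1 was the highest of the 6 and Vascepa replicates 2 and 3 the lowest, so the mean difference of −0.86 ± 0.45 hides a spread of more than 2 log2 units within the group (SD 1.02, limma, adjusted p = 0.976).

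Slc25a22, a glutamate carrier, had the same order among the Vascepa arrays. It read 7.34, 7.02 and 6.98 in vehicle livers and 7.33, 6.42 and 5.36 in Vascepa livers. Slc25a12 (aralar), the aspartate-glutamate carrier of muscle and brain, read 6.83, 6.99 and 6.90 against 7.03, 6.27 and 5.29. Their differences were −0.74 ± 0.44 and −0.71 ± 0.39.

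Their relatives had smaller mean differences. Slc25a13, the aspartate-glutamate carrier of liver, read 9.26, 9.06 and 9.36 in vehicle livers and 9.44, 9.34 and 8.64 in Vascepa livers, so only Vascepa replicate 3 fell below the vehicle range. Its difference was −0.086 ± 0.25, with a 95% interval of −0.66 to 0.49, and its sign turned with array weights, the small nucleolar RNA score, centring on the genes tested and a left-out array. Slc25a18, the other glutamate carrier, read between 2.58 and 2.88 on all 6 arrays, near the filter, and differed by 0.091 ± 0.17. Whether Slc25a12 and Slc25a13, or Slc25a22 and Slc25a18, differed from each other in their response was not tested.

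Slc25a15, the ornithine carrier that couples the cytosolic and matrix steps of the urea cycle, read 9.76, 9.12 and 9.45 in vehicle livers and 9.66, 9.02 and 8.76 in Vascepa livers. The groups overlapped, and the difference was −0.30 ± 0.28. It was −0.14 without vehicle replicate 1, −0.10 without Vascepa replicate 3, −0.55 without Vascepa replicate 1 and −0.46 without vehicle replicate 2. Of 8 measured urea cycle and glutamate enzymes 5 were lower and 3 higher, with a median of −0.13, and none passed at an unadjusted p under 0.05. Nags, which makes the activator of the cycle's entry enzyme, differed by −0.27 ± 0.22, and Oat, which turns ornithine into glutamate semialdehyde, by −0.29 ± 0.26.

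Slc25a29, a carrier of basic amino acids, was the other lower member whose Vascepa readings all lay under its vehicle readings, at 3.30, 3.73 and 3.53 against 3.20, 2.78 and 3.23. It was dim, and the difference was −0.45 ± 0.21 (limma, adjusted p = 0.976). Without Vascepa replicate 2 it was −0.31. Slc25a38, which brings glycine in for heme synthesis, differed by 0.0092 ± 0.28.

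The malate-aspartate and glycerol phosphate shuttles work with Slc25a11, Slc25a12 and Slc25a13. Of their 6 enzymes 6 were lower in the mean, with a median of −0.31, and none passed at an unadjusted p under 0.05. Among all genes tested 60.1% were lower, and 73.3% at or above the 75th percentile of brightness. The list's median level was 9.21, 9.01 and 9.33 in vehicle livers and 9.32, 8.72 and 8.23 in Vascepa livers, lowest on Vascepa replicate 3. Gpd1, the cytosolic glycerol phosphate dehydrogenase, differed by −0.50 ± 0.28. Mdh2, the matrix malate dehydrogenase, read 8.88, 8.93 and 8.99 in vehicle livers and 9.03, 8.77 and 8.08 in Vascepa livers, again highest on Vascepa replicate 1 and lowest on Vascepa replicate 3, and differed by −0.31 ± 0.26.

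Among carriers of nucleotides and phosphate, 6 of 8 tested members were lower in the mean and 2 higher, with a median of −0.059, close to that of all genes. None passed at an unadjusted p under 0.05. Slc25a5 was among the steadiest bright members, at 10.53, 10.86 and 10.70 in vehicle livers and 10.66, 10.69 and 10.57 in Vascepa livers. The Vascepa readings lay inside the vehicle range, and the difference was −0.059 ± 0.18, with a 95% interval of −0.47 to 0.35. Slc25a4 read 3.50, 4.18 and 3.82 in vehicle livers and 3.40, 3.85 and 4.07 in Vascepa livers. Its difference was −0.059 ± 0.26. Skeletal muscle markers lay higher in 5 of 6 tested cases, with a median level per array of 3.29 to 3.41 in vehicle and 3.42 to 3.70 in Vascepa livers and none at 0, and their part in the Slc25a4 reading was not tested. Slc25a4, Slc25a5 and Slc25a31 are close relatives, and cross-binding between their probes was not tested.

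Slc25a3, the phosphate carrier that feeds ATP synthase, differed by −0.15 ± 0.17. The ATP-Mg exchangers went apart by array. Slc25a23 read 9.48, 8.84 and 9.27 in vehicle livers and 9.54, 8.50 and 7.68 in Vascepa livers, highest again on Vascepa replicate 1 and lowest on Vascepa replicate 3, and differed by −0.62 ± 0.44 (limma, adjusted p = 0.976). Slc25a25 and Slc25a24 differed by −0.26 ± 0.31 and 0.047 ± 0.18. Slc25a33 and Slc25a36 carry pyrimidine nucleotides. Slc25a33 read 5.40, 6.32 and 5.64 against 5.54, 5.63 and 6.12, with a difference of −0.023 ± 0.29. Slc25a36 read 3.28, 3.43 and 3.16 against 3.40, 3.62 and 3.58, and with groups that overlapped at their edges differed by 0.24 ± 0.18 (limma, adjusted p = 0.976).

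Carriers of coenzymes, vitamins and glutathione were lower in the mean in 6 of 8 cases, with a median of −0.16, and none passed at an unadjusted p under 0.05. Slc25a39, the glutathione carrier, read 8.03, 8.45 and 8.28 in vehicle livers and 8.06, 7.94 and 7.62 in Vascepa livers. Only vehicle replicate 1 reached into the Vascepa range, and the difference was −0.39 ± 0.21 (limma, adjusted p = 0.976). Its close relative Slc25a40 read 4.34, 4.27 and 4.70 against 4.25, 4.48 and 4.26, and differed by −0.11 ± 0.19.

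Slc25a42, which brings coenzyme A into the matrix, read 6.40, 6.16 and 6.42 against 6.19, 6.33 and 5.42, so that Vascepa replicate 3 alone lay under the vehicle range. Its difference was −0.35 ± 0.26. Slc25a16 also read lowest on Vascepa replicate 3, at 7.05 against 7.41 to 7.73 on the other 5 arrays, and differed by −0.21 ± 0.21. Slc25a17, which works in peroxisomes rather than mitochondria, differed by 0.042 ± 0.20 and Slc25a32, a folate and FAD carrier, by 0.14 ± 0.22. Slc25a51, the NAD carrier, and Slc25a26, which brings in S-adenosylmethionine, differed by −0.22 ± 0.23 and −0.079 ± 0.27.

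Both iron importers, the mitoferrins, were lower in the mean. Slc25a37 (mitoferrin-1), best known from red cell precursors, read 5.80, 5.98 and 6.83 in vehicle livers and 5.73, 5.89 and 5.39 in Vascepa livers. Vehicle replicate 3 stood far above the rest, and the difference was −0.53 ± 0.30 (limma, adjusted p = 0.976), or −0.22 without that array. Slc25a28 (mitoferrin-2), the form of most tissues, read 5.85, 6.02 and 5.89 against 5.90, 5.61 and 5.27, and differed by −0.33 ± 0.21. Of 8 listed erythroid markers 4 had a probe and 2 were tested, both lower in the mean, Slc4a1 by −0.094 and Klf1 by −0.035. Their median level per array ran from 2.61 to 2.91 in vehicle and 2.40 to 2.95 in Vascepa livers, none at 0, and their part in the Slc25a37 reading was not tested. In the heme and iron-sulfur cluster list 5 of 6 means were lower, beside 60.1% of all genes tested. The list's median difference was −0.16, with none past an unadjusted p of 0.05. Alas1, which starts heme synthesis, differed by 0.52 ± 0.54 and Abcb6, a porphyrin transporter, by −0.20 ± 0.21.

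Relatives of the uncoupling proteins were the exception to the lower means, with both tested members higher. Slc25a14 read 2.69, 2.64 and 2.80 in vehicle livers and 2.83, 3.20 and 2.94 in Vascepa livers. All 3 Vascepa readings lay above all 3 vehicle readings, though only just, and close to the filter. The difference was 0.28 ± 0.18 (limma, adjusted p = 0.976). Slc25a30 read 5.35, 5.40 and 6.58 against 6.55, 5.63 and 6.09, uneven in both groups, and differed by 0.31 ± 0.38. The difference ran from 0.086 without Vascepa replicate 1 to 0.72 without vehicle replicate 3, and with array weights it was −0.56. That of Slc25a14 was 0.17 without Vascepa replicate 2. Slc25a27, under the filter, read 2.31, 2.29 and 2.35 against 2.54, 2.58 and 2.98, and was not tested in the fit with the filter.

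With Slc25a10 and Slc25a29 lower and Slc25a14 higher, 3 of the 38 tested carriers, 7.89%, had groups that did not overlap. Among all genes tested the share was 8.24%, with 5.11% lower and 3.13% higher, so the carriers lay near the background. Among the 7 members under the filter, Slc25a27 and Slc25a54 were higher on all 3 Vascepa arrays than on any vehicle array, at readings where expression in these livers was not tested. With no filter, groups did not overlap in 5 of the 45 members, beside 9.17% of all genes. The share among only the genes under the filter was not computed, so nothing is read from these 2 members.

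Carriers with no substrate or a less settled one were lower in the mean in 4 of 6 tested cases, with a median of −0.066, and 0 of 6 passed at an unadjusted p under 0.05. Slc25a47, the liver carrier, read 10.17, 11.05 and 10.84 in vehicle livers and 10.01, 10.79 and 11.16 in Vascepa livers. Replicate 1 of both groups was low and the other 4 arrays high, and the group difference was −0.036 ± 0.35, with a 95% interval of −0.84 to 0.76. Slc25a46 was even, at 7.78, 7.70 and 7.81 against 7.75, 7.92 and 7.63, with a difference of 0.0050 ± 0.17. Slc25a34 read 3.17, 3.87 and 3.86 in vehicle livers and 3.22, 3.23 and 2.36 in Vascepa livers. Vehicle replicate 1 lay among the Vascepa readings, and the difference was −0.70 ± 0.31 (limma, adjusted p = 0.976), or −0.41 without Vascepa replicate 3. Slc25a48 read 4.98, 4.50 and 4.69 against 4.66, 4.79 and 3.90 and differed by −0.27 ± 0.27. Slc25a45 and Slc25a35 differed by −0.096 ± 0.19 and 0.088 ± 0.19.

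Array by array, the carriers read lowest on Vascepa replicate 3. The median over the 38 tested carriers, relative to each gene's vehicle mean, was −0.068, 0.035 and 0.026 on vehicle replicates 1, 2 and 3. It was −0.050 and −0.011 on Vascepa replicates 1 and 2, inside the vehicle range, and −0.33 on Vascepa replicate 3. Hepatocyte markers lay at 0.0030, −0.17 and −0.44 in Vascepa livers, and all genes tested at 0.019, −0.046 and −0.12. Vascepa replicate 3 gave the lowest of the 6 readings in 20 of the 38 carriers, 52.6%, against 38.8% of all genes tested. Among genes at or above the 75th percentile of brightness the count was 18 of 28 carriers, beside 54.9% of all such genes. Without Vascepa replicate 3 the median difference of the carriers was −0.077 and that of all genes −0.016, and 26 of the 38 carriers were still lower, against 53.1% of all genes. Leaving that array out also brought Slc25a28 to −0.17, Slc25a42 to −0.070 and Slc25a16 to −0.033.

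**Figure D3:**
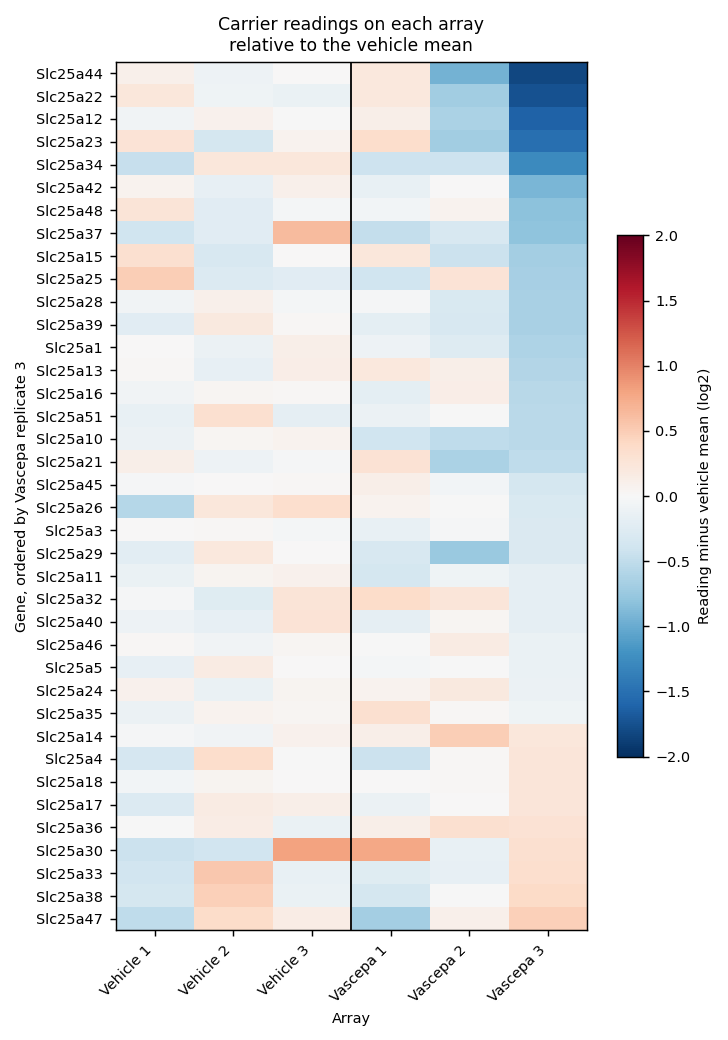
Heat map of the 38 tested SLC25 genes on the 6 arrays, each reading minus the gene's vehicle mean (log2, blue lower and red higher), with genes ordered by their value on Vascepa replicate 3. The deepest blue is on Vascepa replicate 3 in Slc25a44, Slc25a22, Slc25a12 and Slc25a23, which are paler on Vascepa replicate 2 and not lower on Vascepa replicate 1; Slc25a47 at the foot is low on replicate 1 of both groups.

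The carriers with the widest spread shared an order of arrays. Slc25a12, Slc25a22, Slc25a23 and Slc25a44, set apart after their values were seen and so given with no test, had a median deviation of 0.21 on Vascepa replicate 1, −0.69 on replicate 2 and −1.68 on replicate 3. On vehicle replicates 1, 2 and 3 it was 0.16, −0.10 and −0.00076. The small nucleolar RNA level had the opposite order in Vascepa livers, at 5.79, 6.94 and 7.49, and was highest among vehicle arrays on replicate 2 at 6.81. Its part in these readings was not tested beyond a fit with it as a covariate. In that fit Slc25a44 differed by −0.44, Slc25a12 by −0.40, Slc25a22 by −0.34 and Slc25a23 by −0.19, each nearer to 0 than without it, and the family's median difference stayed at −0.18. The same fit moved Slc25a15 from −0.30 to −0.049 and Slc25a47 from −0.036 to −0.35. Leaving out Vascepa replicate 3 brought Slc25a44 to −0.37, Slc25a12 to −0.26, Slc25a22 to −0.24 and Slc25a23 to −0.18. Leaving out Vascepa replicate 1 brought the same 4 genes to −1.39, −1.13, −1.22 and −1.11, and all 4 then passed at an unadjusted p under 0.05, in a fit where 2018 of the 13493 genes did.

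For Slc25a12 the start-site sequence is given as an example of these 4 genes. It holds none of the 6 motifs searched, so it has no capitals, while the windows of Slc25a22 and Slc25a23 hold GC boxes and CCAAT.
Slc25a12 (chr2:71367706-71368005, minus strand): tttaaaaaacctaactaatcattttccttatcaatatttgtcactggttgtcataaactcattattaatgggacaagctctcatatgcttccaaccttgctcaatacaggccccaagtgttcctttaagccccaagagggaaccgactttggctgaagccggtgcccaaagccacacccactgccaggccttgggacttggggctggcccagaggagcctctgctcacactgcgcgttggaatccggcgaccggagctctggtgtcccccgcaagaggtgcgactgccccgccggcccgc

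**Figure D4:**
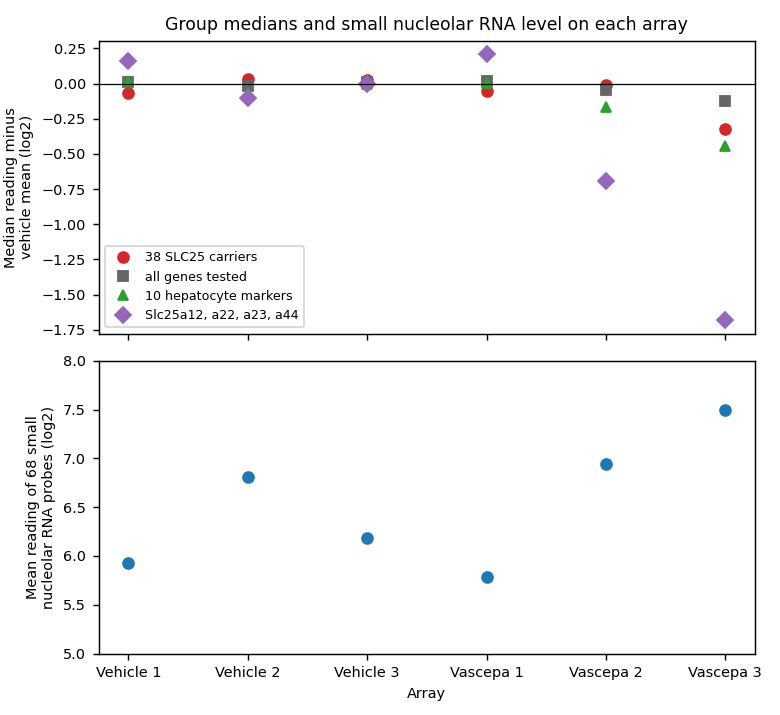
Upper panel: median reading minus the vehicle mean (log2) on each array for the 38 tested SLC25 carriers, all genes tested, 10 hepatocyte markers and the 4 carriers with the widest spread. Lower panel: mean log2 reading of 68 small nucleolar RNA probes. On Vascepa replicate 3 the carriers lie at −0.33, the hepatocyte markers at −0.44 and the 4 carriers at −1.68, and the small nucleolar RNA reading is highest, at 7.49.

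A smaller set of carriers ran the other way. Slc25a47, Slc25a38, Slc25a33 and Slc25a4, also picked after their values were seen, read low on replicate 1 of both groups and high on vehicle replicate 2 and Vascepa replicate 3. Slc25a38 read 5.11, 5.95 and 5.33 in vehicle livers and 5.11, 5.45 and 5.85 in Vascepa livers. The spread between arrays of a group was in these genes several times their difference between groups.

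Other transport proteins of the mitochondrial membranes were also mostly lower in the mean. Of 30 listed genes 24 had a probe and 20 were tested, of which 18 were lower in the mean and 2 higher, with a median of −0.22. Among all genes tested 60.1% were lower, and 73.3% at or above the 75th percentile of brightness. The median level of the 24 genes was 6.57, 6.24 and 6.43 in vehicle livers and 6.49, 6.29 and 5.70 in Vascepa livers. Only Vascepa replicate 3 lay under the vehicle range. At an unadjusted p under 0.05 there was 1 of 20, beside 2.68% of all genes. It was Sfxn3, a sideroflexin of serine transport, which read 3.03, 3.04 and 3.30 in vehicle livers and 2.50, 2.69 and 2.58 in Vascepa livers (difference −0.53 ± 0.18; limma, adjusted p = 0.976). Its Vascepa mean of 2.59 lay under the filter, so it was tested only through its vehicle mean of 3.12, the group where it was higher, and it supports nothing here. Mtch1, a distant relative of the carriers in the outer membrane, differed by −0.37 ± 0.19. Slc25a20, the carnitine carrier of fatty acid oxidation, read 7.72, 8.59 and 8.27 against 7.78, 8.05 and 8.00, and differed by −0.25 ± 0.25. Ucp1 and Ucp3, the uncoupling proteins of brown fat and muscle, were under the filter on all 6 arrays. Ucp2 was not analysed here.

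Proteins of the import route that carriers take to the inner membrane were mostly higher in the mean. Of 10 tested members of the carrier import machinery 7 were higher and 3 lower, with a median of 0.10, and none passed at an unadjusted p under 0.05. Timm29, a subunit of the carrier translocase, read 5.18, 5.36 and 5.34 in vehicle livers and 5.18, 4.85 and 4.41 in Vascepa livers, and differed by −0.48 ± 0.23. Timm10b, a small chaperone of the same complex, differed by 0.19 ± 0.20. The arrays of a group differed by more than this: the median level of the list was 5.30, 5.90 and 5.58 in vehicle livers and 5.41, 5.93 and 5.89 in Vascepa livers. Tomm22, an import receptor picked after its values were seen, read 6.86, 7.53 and 7.08 in vehicle livers and 6.44, 7.36 and 8.01 in Vascepa livers, lowest on Vascepa replicate 1 and highest on Vascepa replicate 3, as the small nucleolar RNA level was. The part of that level in this list was not tested. Whether the import list and the carriers differed was not tested.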

How the data were processed

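Gene expression was measured in 6 mouse liver samples, 3 vehicle_HFD and 3 Vascepa_HFD. The deposited values are log2 readings of transcript clusters, which the authors made with Affymetrix Expression Console and RMA per the submitters' processing notes (versions and build: not given in the sources used here). Background correction and quantile normalization in RMA compress differences of dim probes. Of 41345 probes, 23521 had 1 gene symbol in the platform annotation. For 23328 of these the gene ID was found in RefSeq and the symbol there was used, whether or not it had changed. Each gene kept its brightest probe, and 13493 genes whose mean reached 2.65 (the all-probe median) entered lmFit and eBayes of limma 3.58.1, run in R 4.3.3, without covariates. Adjusted p-values are Benjamini-Hochberg over these genes. Summaries used Python 3.11.15. The procedure was tested on simulated data. Named by rule were the 10 brightest members, members past unadjusted p 0.05 and pairs of relatives. So were the 2 with the smallest p of each substrate group and of each list other than the cell type markers. For some of these only the difference is given, without the reading of each array. Further names were chosen after values were seen. Members and lists were chosen with earlier results of these data known. No scan dates or scanner files were used, so batches were not tested, and the number of arrays limits the precision. Alternatives varied the filter, centring, normalization, prior, array weights, probe rule, small nucleolar RNA score, replicate block and single arrays.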

Additional observations from a re-analysis of the deposited data

How the results depend on the processing

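The family's median difference of −0.18 stayed negative under all 16 alternatives, between −0.25 and −0.059. Each lay within 1 SD of the family's median between arrays of a group, a spread that Vascepa replicate 3 widened. The trended prior, the replicate block and the mean of all probes cannot change a carrier's difference. The filters change only which carriers enter the median. No gene passed the adjusted threshold except with array weights (4100 genes, where Vascepa replicate 2 had weight 39.5) and with the small nucleolar RNA score as a covariate (2 genes). The count of carriers past an unadjusted p of 0.05 was 1 in the fit reported, beside 2.68% of all genes. It was 2 with no filter (3.41% of all genes) and 2 with the small nucleolar RNA score (6.05%). It was 3 with arrays centred on the median of all probes (2.85%) and 3 with the trended prior (2.92%). With array weights it was 17, where 43.7% of all genes passed. Centring on the genes tested, a setting chosen after seeing the data, gave 0 (2.33%). With single arrays left out it ran from 0 to 7. It was 0 without vehicle replicate 2 (1.89% of all genes), vehicle replicate 3 (1.04%) or Vascepa replicate 2 (1.64%). It was 2 without vehicle replicate 1 (1.47%) or Vascepa replicate 3 (2.60%). Without Vascepa replicate 1 it was 7, where 2018 of the 13493 genes passed. The count of carriers whose groups did not overlap, 3, was 5 with no filter (9.17% of all genes) and with centring on all probes (9.47%), 1 with the 75th percentile filter (6.86%), and 3 to 14 without single arrays, where fewer arrays make overlap rarer (13.1% to 31.8% of all genes, with 14 carriers and 31.8% both without Vascepa replicate 1). The samples share only a replicate number: the deviations of same-numbered arrays correlated at 0.61, 0.11 and −0.13. With the replicate block 3 of 38 carriers passed at an unadjusted p under 0.05, Slc25a10, Slc25a22 and Slc25a44, beside 438 of the 13493 genes (3.25%). In that fit 0 genes passed the adjusted threshold.

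Of 27 carriers followed, 16 kept their sign under each alternative that tested them. The filters, the trended prior, the replicate block and the mean of all probes could not turn a sign. Under the 75th percentile filter Slc25a4, Slc25a14, Slc25a18, Slc25a29, Slc25a34 and Slc25a36 were not tested. With array weights the difference turned to 0.042 in Slc25a13, 0.11 in Slc25a16, −0.046 in Slc25a17, −0.56 in Slc25a30, 0.037 in Slc25a4, 0.033 in Slc25a47 and 0.074 in Slc25a48. With centring on all probes it was −0.034 in Slc25a17 and −0.071 in Slc25a46, with quantile normalization again 0.092 in Slc25a33, and with the small nucleolar RNA score 0.079 in Slc25a13 and −0.063 in Slc25a17. With centring on the genes tested it was 0.015 in Slc25a13, 0.078 in Slc25a33, 0.041 in Slc25a4, 0.064 in Slc25a47 and 0.041 in Slc25a5. Single arrays left out gave ranges of −0.24 to 0.17 in Slc25a13, −0.094 to 0.12 in Slc25a17, −0.22 to 0.25 in Slc25a33, −0.23 to 0.13 in Slc25a4, −0.19 to 0.028 in Slc25a40, −0.073 to 0.076 in Slc25a46, −0.29 to 0.29 in Slc25a47, −0.44 to 0.0038 in Slc25a48 and −0.14 to 0.022 in Slc25a5. The cause of these turns was not tested.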
